A study of Mus musculus with 8 samples.

Results

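Nuclear receptors are described here in 2 RNA-seq experiments through 34 genes, taken by their mouse symbol from the 21757 genes of the first experiment and by the matching upper-case human symbol from the 60071 genes kept in the second. Bile acid receptors and the HNF4 receptors were left out of the family. All 34 were listed in both experiments. The first experiment compared 2 Ctnnb1-ex3 libraries with 2 WT libraries of organoids from mouse small intestine, which are epithelial cultures that renew themselves in a gel. Alleles of this name usually carry a beta-catenin gene without exon 3, whose protein escapes degradation. Per the labels, the growth medium of WT organoids held Wnt3a, R-spondin1, Noggin and EGF, and that of Ctnnb1-ex3 organoids held Noggin and EGF alone, so that allele and medium differed together and cannot be told apart. The second experiment compared 2 libraries carrying a hairpin RNA that targets Prmt1 (sh-Prmt1), an arginine methyltransferase that also acts as a coactivator of nuclear receptors, with 2 libraries of a scrambled hairpin (sh-scramble). The labels call these mouse intestinal organoids too and give no further genotype for them, yet all 60237 gene identifiers in their tables are human.

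Nuclear receptors are transcription factors that bind DNA through a pair of zinc fingers, and many are switched by a small fat-soluble ligand such as a fatty acid, retinoic acid, a sterol, a vitamin or a hormone. Many of them bind as a pair with a retinoid X receptor, and they recruit coactivators or corepressors to their target genes. In the intestinal epithelium the family is known for setting lipid, vitamin A, bile and drug handling in absorptive cells, and some members also act in crypt cells.

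The promoters of 3 members that were higher in Ctnnb1-ex3 organoids are shown first, because each holds, for 1 of the motifs searched, the only match among the members' promoters. Each is the RefSeq window from 250 bases before to 50 bases after an annotated start on mouse GRCm38.p6 (the mm10 build), printed 5′ to 3′ on the strand of the gene. The window of Rarb is chr14:16575427-16575726 on the minus strand, that of Nr4a1 is chr15:101266596-101266895 on the plus strand, and that of Nr2f2 is chr7:70366697-70366996 on the minus strand. Capitals mark the retinoic acid element in Rarb (GTTCA, any 6 bases, GTTCA), the AP-1-like element TGCGTCA in Nr4a1, and the reverse complement of the TCF/LEF element ATCAAAG in Nr2f2.
Rarb: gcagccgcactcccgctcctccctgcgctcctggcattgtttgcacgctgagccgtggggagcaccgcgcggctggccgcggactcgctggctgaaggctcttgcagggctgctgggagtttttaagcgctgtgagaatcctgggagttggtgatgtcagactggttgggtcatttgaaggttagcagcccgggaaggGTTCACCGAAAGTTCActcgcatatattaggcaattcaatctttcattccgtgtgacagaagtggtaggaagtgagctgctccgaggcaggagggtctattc
Nr4a1: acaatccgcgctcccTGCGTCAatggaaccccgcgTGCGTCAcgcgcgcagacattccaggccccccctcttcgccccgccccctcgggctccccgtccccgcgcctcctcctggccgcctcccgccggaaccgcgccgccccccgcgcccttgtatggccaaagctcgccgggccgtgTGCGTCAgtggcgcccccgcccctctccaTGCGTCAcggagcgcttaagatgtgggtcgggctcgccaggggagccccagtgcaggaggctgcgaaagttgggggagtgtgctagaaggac
Nr2f2: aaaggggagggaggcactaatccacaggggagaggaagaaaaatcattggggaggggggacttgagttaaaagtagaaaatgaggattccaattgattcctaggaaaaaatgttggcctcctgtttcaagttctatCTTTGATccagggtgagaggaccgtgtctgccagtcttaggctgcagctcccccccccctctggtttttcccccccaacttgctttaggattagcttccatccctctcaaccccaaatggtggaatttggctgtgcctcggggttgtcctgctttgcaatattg
Of the 34 members, 32 had a RefSeq window, with 47 windows among them, and 32851 promoters were searched on both strands. The retinoic acid element, a direct repeat long known from the Rarb promoter, was in 25 promoters, or 0.0761%. TGCGTCA, a motif picked after the Nr4a1 sequence was seen, was in 695 promoters (2.12%), and the Nr4a1 window was the only promoter with 4 matches (0.00304%). ATCAAAG was in 1225 promoters (3.73%), and among the members only Nr2f2 held it. Of the other motifs searched, TGACGTCA (588 promoters, 1.79%) was found in Nr6a1, and CACGTG (2349 promoters, 7.15%) in Nr1i3, Rara and Thrb. The receptor half-site AGGTCA was in 5340 promoters (16.3%) and in windows of 9 members. The longer AAAGGTCA, which always holds the half-site, was in 495 promoters (1.51%), with Rxra and Rxrg among them. These matches describe letters and say nothing of binding.

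Libraries of the first experiment held 3683169 to 6015933 counts in Ctnnb1-ex3 and 2951887 to 4631527 counts in WT, and those of the second held 39595722 to 53177850 estimated counts in sh-Prmt1 and 39720609 to 45868139 in sh-scramble. Levels are given as CPM, counts scaled to library size with TMM, in the order replicate 1 and replicate 2. A floor of 3 counts was worth 0.451 to 1.14 CPM per library in the first experiment and 0.0528 to 0.0809 CPM in the second. Calls were made where edgeR's quasi-likelihood test gave an adjusted p under 0.05, adjusted over every tested gene by the Benjamini-Hochberg method, written below as edgeR adjusted p. The labels do not say whether replicates came from separate cultures, so these p-values measure the spread between libraries, which may be technical. Gene-level counts cannot show the loss of an exon, and Ctnnb1 itself had 217 and 289 CPM in Ctnnb1-ex3 and 340 and 423 CPM in WT (edgeR adjusted p = 0.0504). The Wnt target Axin2 had 131 and 152 CPM in Ctnnb1-ex3 and 13.6 and 12.9 CPM in WT, and the stem cell gene Lgr5 had 225 and 230 CPM against 12.0 and 15.6 CPM. PRMT1 had 2.99 and 3.35 CPM in sh-Prmt1 and 37.0 and 34.2 CPM in sh-scramble, a fall by 3.48 on the log2 scale (edgeR adjusted p = 1.04e-06).

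In Ctnnb1-ex3 organoids receptors moved in both directions. The fatty acid, oxysterol, drug and glucocorticoid receptors that changed fell, while Rarb, Nr4a1, Nr2f2 and Rxrb rose. Of 34 members, 29 passed the filter on low counts, and Rxrg, Rora, Pgr, Nr2f1 and Nr4a3 did not. Esr1 passed only through the group where it was high, so its call is counted below but supports nothing. Nr1i3 passed only with its WT libraries, where it was high, and its call is likewise counted but supports nothing. Among the 29, 5 were called higher, against 20.3% of all genes tested, and 11 were called lower, against 20.5% of all genes tested. Together 16 were called, where 40.8% of all genes tested were, and the groups did not overlap for 21 members, as they did not for 73.6% of all genes tested. The median log2 fold change was -0.16 over the tested members and 0.02 over all tested genes. Scaling by library size alone, an alternative chosen after seeing the data, moved that overall median to 0.27 and the share of calls that were higher to 67.7%, from 49.8% with TMM, and it gave 6 members higher and 10 lower. Leaving out WT replicate 1 or WT replicate 2 left 2 members called higher and 7 called lower in either case.

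**Figure D1:**
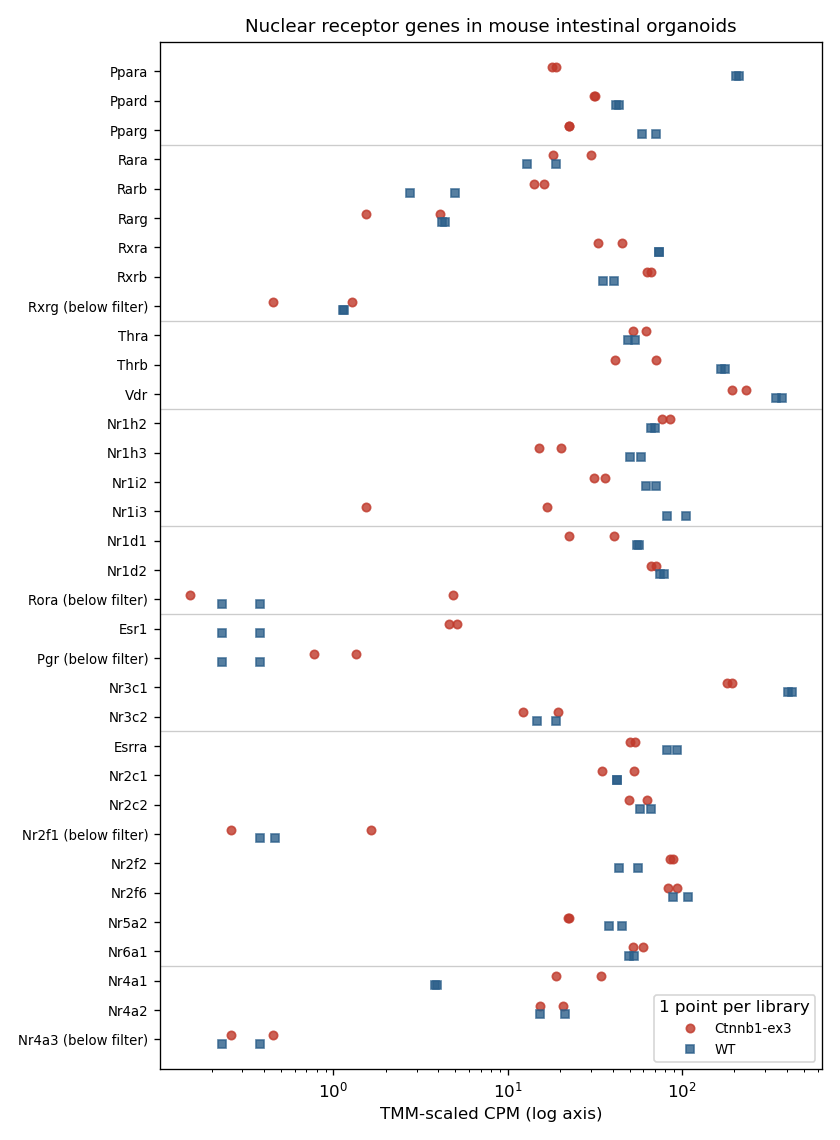
TMM-scaled CPM on a log axis for each of the 34 nuclear receptor genes (rows, grouped by role) in each Ctnnb1-ex3 library (red circles) and each WT library (blue squares), with 1 point per library and 2 libraries per group. The Ppara points of Ctnnb1-ex3 lie at 18.9 and 18.0 CPM, far left of the WT points at 205 and 213 CPM, while those of Rarb and Nr4a1 lie right of WT.

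Markers of the cell types differed between the same libraries. Of 15 markers of absorptive enterocytes, 14 were lower in Ctnnb1-ex3 and 0 higher, with summed levels of 1920 and 1550 CPM in Ctnnb1-ex3 and 6130 and 7400 CPM in WT. The 10 stem cell markers, with the Wnt target Axin2 among them, were all called higher. They summed to 1800 and 2050 CPM in Ctnnb1-ex3 and 670 and 671 CPM in WT. Also called higher were 4 of 4 tested tuft cell markers and 6 of 8 enteroendocrine markers. In bulk RNA, fewer cells of a type and less RNA per cell cannot be told apart, and the part of the cell mixture in the receptor results below was not tested. Stromal and endothelial markers summed to 34.2 to 43.7 CPM in Ctnnb1-ex3 and 14.4 to 29.5 CPM in WT, and immune markers to 18.9 to 77.1 CPM in Ctnnb1-ex3 and 19.0 to 106 CPM in WT.

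Among the fatty acid receptors, Ppara, which drives fatty acid oxidation genes, had the lowest log2 fold change of the 29 tested members, though that of Nr1i3 was lower without Ctnnb1-ex3 replicate 1 (-5.88 against -3.54), with limma-voom (-3.82 against -3.49) and with cyclic loess scaling (-4.40 against -3.49). Its libraries held 126 and 70 counts in Ctnnb1-ex3 and 889 and 561 counts in WT, or 18.9 and 18.0 CPM against 205 and 213 CPM. Replicates lay close together and the groups far apart, 11.3-fold lower, with a log2 fold change of -3.49 ± 0.15 (SE; edgeR adjusted p = 2.39e-05). Pparg, known for lipid storage in fat cells and also present in gut epithelium, had 22.4 and 22.6 CPM in Ctnnb1-ex3 and 71.1 and 59.0 CPM in WT. It fell by 1.54 ± 0.20 on the log2 scale (edgeR adjusted p = 0.00112). Ppard, the broadly expressed member, had 31.3 and 31.6 CPM in Ctnnb1-ex3 and 43.3 and 41.8 CPM in WT, and did not pass (log2 fold change -0.44 ± 0.21, edgeR adjusted p = 0.129). Of 18 tested PPAR target genes, 14 were lower and 0 higher (1 higher without Ctnnb1-ex3 replicate 2), with a median log2 fold change of -1.39, and 1 of the list, Fabp1, is also an enterocyte marker. Creb3l3, a liver and gut regulator of lipid genes, had 34.3 and 13.1 CPM in Ctnnb1-ex3 and 253 and 268 CPM in WT. The fatty acid transporter Cd36 had 15.2 and 4.11 CPM against 73.0 and 63.9 CPM, and Ehhadh, an enzyme of peroxisomal oxidation, 37.3 and 39.8 CPM against 183 and 191 CPM. Their log2 fold changes were -3.40, -2.74 and -2.28 in that order, and without Ctnnb1-ex3 replicate 1 those of Creb3l3 and Cd36 were -4.31 and -4.05.

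Retinoid receptors moved in both directions. Rarb, a retinoic acid receptor whose own promoter carries the element printed above, had 107 and 55 counts in Ctnnb1-ex3 and 12 and 13 counts in WT. That is 16.1 and 14.1 CPM against 2.76 and 4.95 CPM, with no overlap, and a log2 fold change of 2.01 ± 0.48 (4.02-fold, edgeR adjusted p = 0.0131). Rxrb, a common partner of other receptors, was also higher, at 66.0 and 62.7 CPM in Ctnnb1-ex3 and 40.8 and 35.0 CPM in WT (log2 fold change 0.76 ± 0.18, edgeR adjusted p = 0.0119). Its relative Rxra, the main partner in gut and liver, was lower, at 45.4 and 32.9 CPM in Ctnnb1-ex3 and 73.7 and 73.8 CPM in WT (log2 fold change -0.90 ± 0.20, edgeR adjusted p = 0.00847). None of these 3 calls held with a single WT library. Without WT replicate 1 the edgeR adjusted p was 0.131 for Rarb, 0.0521 for Rxrb and 0.0533 for Rxra, and leaving out WT replicate 2 gave 0.0503, 0.107 and 0.0696. Cyclic loess scaling also ended the call of Rarb (log2 fold change 1.28, limma adjusted p = 0.0518). Rara, a retinoic acid receptor expressed in many tissues, had 30.2 and 18.2 CPM in Ctnnb1-ex3 and 18.9 and 12.9 CPM in WT, with overlapping groups. Rarg had 1.54 to 4.37 CPM in the 4 libraries and Rxrg 3 to 5 counts.

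Genes that make, carry or clear retinoids were 2 higher and 7 lower of 10 tested, with a median log2 fold change of -0.76. Aldh1a1, which makes retinoic acid, had 68.4 and 45.2 CPM in Ctnnb1-ex3 and 321 and 375 CPM in WT (log2 fold change -2.60). The cellular retinol carrier Rbp2, also an enterocyte marker of the lists used, had 113 and 116 CPM in Ctnnb1-ex3 and 239 and 365 CPM in WT (log2 fold change -1.39). The counts of the list fell to 0 higher and 4 lower without WT replicate 1 and to 0 higher and 3 lower without WT replicate 2.

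Of the thyroid hormone and vitamin D receptors, Thrb and Vdr were lower and Thra was not called. Thrb, the beta form of the thyroid hormone receptor, had 70.6 and 41.4 CPM in Ctnnb1-ex3 and 176 and 167 CPM in WT (log2 fold change -1.59 ± 0.23, edgeR adjusted p = 0.00146). Thra, the form known for acting in crypt cells, had 62.4 and 52.1 CPM in Ctnnb1-ex3 and 49.0 and 53.6 CPM in WT, with overlap (edgeR adjusted p = 0.477). The 3′ part of Thra overlaps Nr1d1 on the other strand of mouse chromosome 11, and a library without strand information cannot tell reads of the overlap apart. Vdr, the receptor for active vitamin D, had 194 and 234 CPM in Ctnnb1-ex3 and 346 and 375 CPM in WT (log2 fold change -0.76 ± 0.17, edgeR adjusted p = 0.0108). The Vdr call was lost without WT replicate 1 (-0.81, edgeR adjusted p = 0.0742), without WT replicate 2 (-0.66, 0.135) and with cyclic loess scaling (-0.29, limma adjusted p = 0.0725). Among 5 tested vitamin D targets and calcium transport genes, 3 were lower and 0 higher. The manganese exporter Slc30a10 had 27.4 and 10.3 CPM in Ctnnb1-ex3 and 190 and 173 CPM in WT (log2 fold change -3.20; -4.14 without Ctnnb1-ex3 replicate 1). S100g, which encodes the calcium buffer calbindin-D9k, had 39.4 and 45.0 CPM in Ctnnb1-ex3 and 141 and 196 CPM in WT (log2 fold change -2.00). Of 6 tested genes of thyroid hormone handling, Thra among them, 1 was higher and 2 were lower, and without WT replicate 1 or WT replicate 2 the counts were 0 and 1. The lower genes included the hormone transporter Slc16a10, at 69.0 and 61.4 CPM in Ctnnb1-ex3 and 124 and 131 CPM in WT (log2 fold change -0.96).

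The oxysterol and drug receptors that changed were lower. Nr1h3 (LXR alpha), a sterol sensor of lipid-handling cells, had 20.1 and 15.2 CPM in Ctnnb1-ex3 and 57.8 and 50.6 CPM in WT (log2 fold change -1.61 ± 0.25, edgeR adjusted p = 0.002). Its broadly expressed relative Nr1h2 (LXR beta) had 77.1 and 85.0 CPM in Ctnnb1-ex3 and 69.8 and 66.2 CPM in WT, without overlap but without a call (log2 fold change 0.25, edgeR adjusted p = 0.187). Nr1i2 (PXR), which senses drugs, had 36.1 and 31.3 CPM in Ctnnb1-ex3 and 70.9 and 62.4 CPM in WT (log2 fold change -0.98 ± 0.19, edgeR adjusted p = 0.00479), a call lost without WT replicate 1 (-0.88, edgeR adjusted p = 0.063). Nr1i3 (CAR), its partner in drug response, held 112 and 6 counts in Ctnnb1-ex3 and 355 and 278 counts in WT. The Ctnnb1-ex3 libraries themselves stood far apart, at 16.8 and 1.54 CPM, both under the WT libraries at 81.7 and 106 CPM. With 6 counts in Ctnnb1-ex3 replicate 2, Nr1i3 passed the filter on low counts only with its WT libraries, so its call supports nothing. The log2 fold change was -3.20 ± 0.61 (edgeR adjusted p = 0.00508), and leaving out Ctnnb1-ex3 replicate 1 gave -5.88 where leaving out replicate 2 gave -2.45.

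Of 9 tested LXR targets, 5 were lower and 1 higher (median log2 fold change -1.34), and 0 were higher without Ctnnb1-ex3 replicate 1, WT replicate 1 or WT replicate 2. The higher one, named after its values were seen, was the sterol exporter gene Abcg1, with 11.3 and 4.37 CPM in Ctnnb1-ex3 and 2.07 and 1.90 CPM in WT (log2 fold change 1.98). Abcg1 passed the filter on low counts only through the group where it was high, so its call supports nothing. Smpdl3a, a phosphodiesterase, had 36.5 and 34.4 CPM in Ctnnb1-ex3 and 210 and 247 CPM in WT (log2 fold change -2.68). The sterol exporters Abcg5 and Abcg8, which work as a pair, had log2 fold changes of -2.65 and -2.42, with 59.1 and 22.6 CPM in Ctnnb1-ex3 against 236 and 290 CPM in WT for Abcg5. Without Ctnnb1-ex3 replicate 1 the value of Abcg5 was -3.54. Of 10 tested genes of the response to foreign compounds, 9 were lower and 0 higher (median -1.59). The drug-oxidising enzyme Cyp3a11 had 32.6 and 13.6 CPM in Ctnnb1-ex3 and 278 and 298 CPM in WT (log2 fold change -3.58). Cyp2b10, a classic target of CAR, had 73.5 and 15.4 CPM in Ctnnb1-ex3 and 294 and 312 CPM in WT (log2 fold change -2.71). Ces2a, a carboxylesterase, had 96.9 and 65.2 CPM in Ctnnb1-ex3 and 419 and 517 CPM in WT (log2 fold change -2.52). Without Ctnnb1-ex3 replicate 1 the log2 fold changes of Cyp3a11 and Cyp2b10 were -4.40 and -4.29, and without Ctnnb1-ex3 replicate 2 that of Cyp2b10 was -2.03.

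Among steroid receptors, the glucocorticoid receptor Nr3c1 was well expressed and fell. It had 180 and 194 CPM in Ctnnb1-ex3 and 406 and 427 CPM in WT, with tight replicates (log2 fold change -1.15 ± 0.16, edgeR adjusted p = 0.00142). The mineralocorticoid receptor Nr3c2 had 12.3 and 19.5 CPM in Ctnnb1-ex3 and 18.9 and 14.8 CPM in WT, with overlap. The estrogen receptor gene Esr1 held 34 and 18 counts in Ctnnb1-ex3 and 1 and 1 in WT, where 1 is the lowest value in the table. Against a floor of 3 counts per library it was at least 5.31-fold higher, a description with no p, since it passed the filter only through the group where it was high. The progesterone receptor gene Pgr held 9 and 3 counts in Ctnnb1-ex3 and 1 and 1 in WT and was not tested. Of 10 tested glucocorticoid response genes, 3 were higher and 4 lower (median log2 fold change -0.36), and without WT replicate 1 or WT replicate 2 the count higher was 1. The kinase gene Sgk1 had 7.97 and 8.48 CPM in Ctnnb1-ex3 and 41.7 and 33.5 CPM in WT (log2 fold change -2.20), and Tsc22d3, which encodes the glucocorticoid-induced leucine zipper, 48.8 and 36.0 CPM against 132 and 123 CPM (-1.57). The cell cycle inhibitor gene Cdkn1c went the other way, with 24.8 and 23.4 CPM in Ctnnb1-ex3 and 5.07 and 7.99 CPM in WT (log2 fold change 1.91, edgeR adjusted p = 0.00636, and 0.071 without WT replicate 1). Of 6 tested mineralocorticoid response genes, 3 were lower and 0 higher, a list that shares Sgk1, and 1 was lower without WT replicate 1 or WT replicate 2.

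Neither of the 2 clock receptors tested was called by edgeR, with 1 at an unadjusted p under 0.05, although Nr1d1 lay close to the threshold and was called under 7 of 13 alternatives. Nr1d1 (REV-ERB alpha), a repressor in the circadian loop, had 40.9 and 22.6 CPM in Ctnnb1-ex3 and 55.0 and 56.3 CPM in WT (log2 fold change -0.79 ± 0.28, edgeR adjusted p = 0.0542). The edgeR adjusted p was 0.0418 with RLE size factors, 0.0417 with no filter, and 0.0236 with the replicate block. It was 1.65e-06 when Ctnnb1-ex3 replicate 1 was left out (log2 fold change -1.30) and 0.0382 when replicate 2 of that group was (-0.43). DESeq2 gave an adjusted p of 0.0472, limma with cyclic loess 0.0135 and limma-voom 0.0589, and the highest over the 13 was 0.217, without WT replicate 2. Its relative Nr1d2 had 70.9 and 66.8 CPM in Ctnnb1-ex3 and 74.6 and 78.4 CPM in WT (edgeR adjusted p = 0.418). Rora, which acts on the same DNA sites as an activator, held 1 and 19 counts in Ctnnb1-ex3 and 1 and 1 in WT. It did not pass the filter, and the fit with no filter called it higher (log2 fold change 2.89, edgeR adjusted p = 0.02) on that 1 library. The Ctnnb1-ex3 library with 19 counts was also the one with 110 counts of the lymphocyte gene Gzma, where the others had 1, and with 25 counts of Ptprc, 14 of Cd3e and 13 of Cd3g. The part of those cells in the Rora count was not tested. Of 15 clock genes, 2 were higher and 5 lower (median log2 fold change -0.08). Those higher were Bhlhe41 (log2 fold change 2.52, edgeR adjusted p = 0.0213) and Per1 (1.11, edgeR adjusted p = 0.0373). Both calls were lost with cyclic loess scaling (log2 fold changes 1.17 and 0.58). Among the lower, Bhlhe40, a repressor in the loop, had 93.2 and 80.9 CPM in Ctnnb1-ex3 and 174 and 197 CPM in WT (log2 fold change -1.09). Dbp, named after its values were seen, held 1 and 1 counts in Ctnnb1-ex3 and 33 and 10 in WT, at least 9.33-fold lower against the same floor. That is a description with no p, since Dbp passed the filter only through WT, where it was high. The clock list had 0 higher and 3 lower without WT replicate 1, and without WT replicate 2 it had 0 higher and 2 lower.

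Orphan receptors divided too. Nr2f2 (COUP-TFII), known for roles in development and in mesenchyme, had 589 and 332 counts in Ctnnb1-ex3 and 242 and 115 in WT. Its levels of 88.5 and 85.3 CPM in Ctnnb1-ex3 stood above 55.7 and 43.7 CPM in WT (log2 fold change 0.79 ± 0.16, edgeR adjusted p = 0.0069, and 0.0799 without WT replicate 2). Esrra, an estrogen-related receptor that drives mitochondrial genes with PGC-1 coactivators, had 53.5 and 50.3 CPM in Ctnnb1-ex3 and 81.7 and 93.6 CPM in WT (log2 fold change -0.75 ± 0.15, edgeR adjusted p = 0.00593, and 0.111 without WT replicate 2). Nr5a2 (LRH-1), known for crypt renewal and local steroid synthesis, had 22.4 and 22.1 CPM in Ctnnb1-ex3 and 38.2 and 45.3 CPM in WT (log2 fold change -0.90 ± 0.24, edgeR adjusted p = 0.0195). The Nr5a2 call was lost under 5 of 13 alternatives, with an edgeR adjusted p of 0.0822 when WT replicate 1 was left out and 0.239 when WT replicate 2 was. Nr2c1, Nr2c2, Nr2f6 and Nr6a1 overlapped between the groups, and Nr2f1 held 11 and 1 counts in Ctnnb1-ex3 and 2 and 1 in WT. The 3 tested LRH-1 targets were all higher: Myc had 138 and 139 CPM in Ctnnb1-ex3 and 59.2 and 57.1 CPM in WT (log2 fold change 1.25), Ccne1 a log2 fold change of 0.86 and Ccnd1 one of 0.75. Myc and Ccnd1 are also known Wnt responders. The Ccne1 call was lost without WT replicate 2 (0.61, edgeR adjusted p = 0.238), and that of Ccnd1 without Ctnnb1-ex3 replicate 2 (0.55, 0.0515), WT replicate 1 (0.81, 0.11) and WT replicate 2 (0.73, 0.147).

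The NR4A receptors act without a known natural ligand and are induced within minutes of many stimuli. Nr4a1 (NUR77) held 125 and 133 counts in Ctnnb1-ex3 and 17 and 10 in WT. Its 18.8 and 34.2 CPM in Ctnnb1-ex3 lay well above 3.91 and 3.80 CPM in WT, a log2 fold change of 2.76 ± 0.46 (6.76-fold, edgeR adjusted p = 0.00277). Nr4a2 showed no such difference, with 20.7 and 15.4 CPM in Ctnnb1-ex3 and 15.4 and 21.3 CPM in WT, and Nr4a3 was at 1 to 3 counts in every library. Other immediate early genes were mostly not higher: of 14 tested, 2 were higher and 5 lower (median log2 fold change -0.39). Arc, a gene best known from neurons, had 23.9 and 20.3 CPM in Ctnnb1-ex3 and 4.60 and 2.28 CPM in WT (log2 fold change 2.62, or 3.26 if WT replicate 1 is left out). Arc passed the filter on low counts only with its Ctnnb1-ex3 libraries, where it was high, so its call supports nothing. The phosphatase gene Dusp1 had 30.8 and 34.2 CPM in Ctnnb1-ex3 and 88.9 and 76.5 CPM in WT (log2 fold change -1.36). The mRNA decay factor gene Zfp36 had 77.5 and 80.1 CPM in Ctnnb1-ex3 and 165 and 193 CPM in WT (log2 fold change -1.18). The immediate early list had 1 higher and 4 lower without WT replicate 1, and without WT replicate 2 it had 1 higher and 2 lower.

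Coregulators, which receptors recruit, were 4 higher and 1 lower of 17 tested (median log2 fold change -0.06), and 2 higher and 1 lower without WT replicate 1 or WT replicate 2. Without Ctnnb1-ex3 replicate 1 there were 3 lower, and without Ctnnb1-ex3 replicate 2 there were 2. The arginine methyltransferases Prmt1 and Carm1, both coactivators, were higher. Prmt1 had 51.2 and 32.4 CPM in Ctnnb1-ex3 and 10.1 and 11.4 CPM in WT (log2 fold change 1.97 ± 0.33, edgeR adjusted p = 0.00287). Carm1 had 19.5 and 13.6 CPM in Ctnnb1-ex3 and 3.91 and 4.56 CPM in WT (log2 fold change 1.98), a call lost when WT replicate 1 (edgeR adjusted p = 0.0901) or WT replicate 2 (0.0698) was left out. The 1 coregulator that fell, named after its values were seen, was Ppargc1a, which encodes PGC-1 alpha and had 48.2 and 24.7 CPM in Ctnnb1-ex3 and 105 and 97.0 CPM in WT (log2 fold change -1.44, edgeR adjusted p = 0.00472, and -2.04 without Ctnnb1-ex3 replicate 1). Among 5 tested receptor genes outside the 34 members, 2 were higher and 1 lower, and 1 was higher without WT replicate 1 or WT replicate 2, with 0 lower in the fit without WT replicate 1. Nr2e3, best known as a photoreceptor factor, had 34.1 and 35.7 CPM in Ctnnb1-ex3 and 4.83 and 4.95 CPM in WT (log2 fold change 2.83).

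The order of the members by level, on the scale of CPM per kilobase of annotated exon, differed between the groups for several members. Ppara was member 20 in Ctnnb1-ex3 and member 2 in WT, Nr1i3 was member 27 and member 9, Rxrb was member 5 and member 16, and Nr4a1 was member 15 and member 26. In Ctnnb1-ex3 Vdr led with 34.3 and 41.3, followed by Nr2f6 with 27.9 and 31.2, Nr3c1 with 23.5 and 25.2 and Nr1h2 with 23.0 and 25.4, of which Nr3c1 and Nr1h2 did not differ beyond their spread. Ppara had 4.94 and 4.69. In WT Vdr led with 61.2 and 66.5, and Ppara and Nr3c1 followed with overlapping values of 53.4 and 55.6 for Ppara and 52.8 and 55.5 for Nr3c1.

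**Figure D2:**
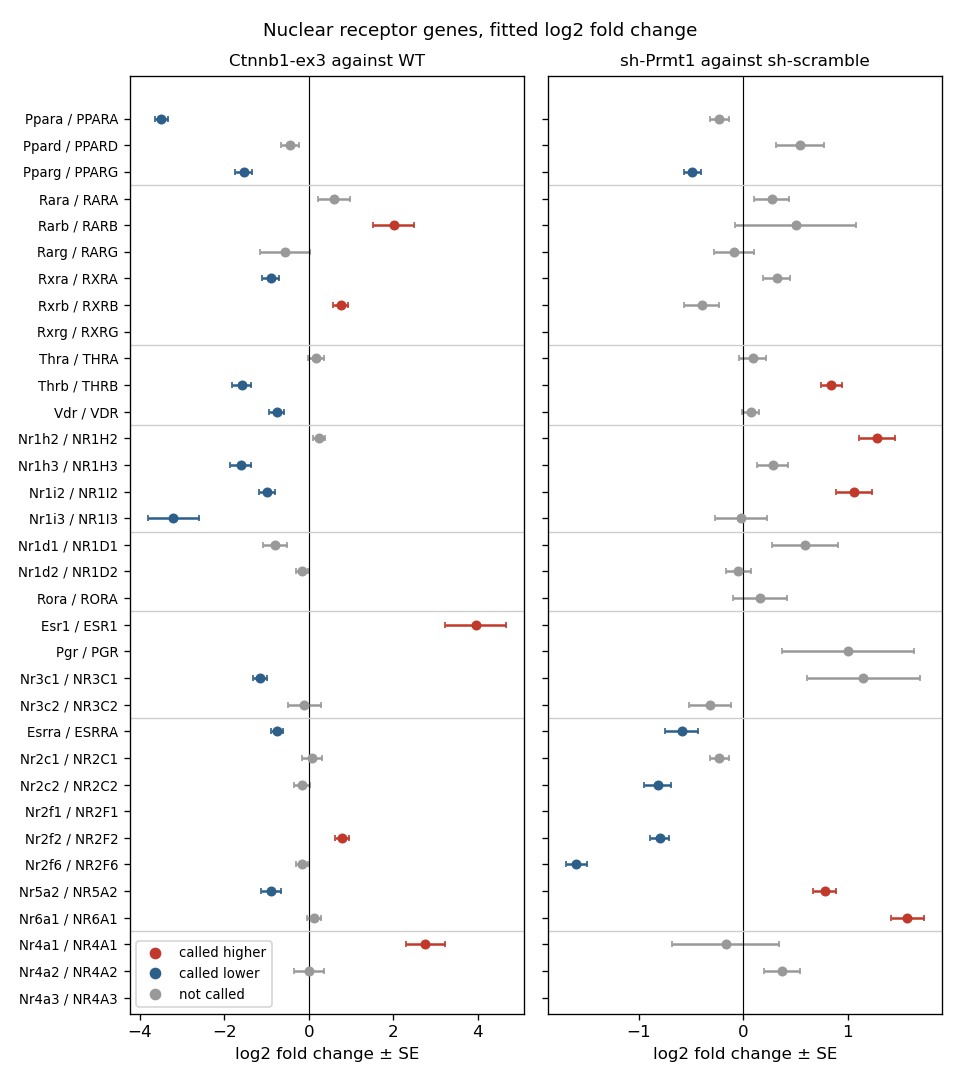
Fitted log2 fold change with its SE (bars) for the members tested in Ctnnb1-ex3 against WT (left, 29 members) and in sh-Prmt1 against sh-scramble (right, 30 members), with called members in red (higher) or blue (lower) and the others in grey. On the left the points run from -3.49 for Ppara to 3.95 for Esr1, a fitted value that rests on 1 count in each WT library, and on the right from -1.60 for NR2F6 to 1.57 for NR6A1.

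In the knockdown libraries members also moved in both directions. NR6A1, NR1H2, NR1I2, THRB and NR5A2 rose in sh-Prmt1, and NR2F6, NR2C2, NR2F2, ESRRA and PPARG fell. Of 30 members tested, 5 were called higher, against 20.6% of all genes tested, and 5 lower, against 20.4%. The 10 calls stand against 41.0% of all genes tested, and the groups did not overlap for 25 members, as they did not for 71.1% of all genes tested. RXRG, ESR1, NR2F1 and NR4A3 did not pass the filter on low counts. The median log2 fold change was 0.12 over these members and 0.03 over all tested genes. With library size alone, where the overall median was 0.24 and 70.2% of calls were higher against 50.2% with TMM, 11 members were higher and 4 lower. The libraries carried epithelial markers in both groups. Enterocyte markers summed to 5860 and 5970 CPM in sh-Prmt1 and 7660 and 8320 CPM in sh-scramble (4 of 9 tested higher, 2 lower, median log2 fold change 0.26). The sum fell although more of these markers were called higher than lower, so it follows the most abundant of them and not the list as a whole. Stem cell markers summed to 449 and 477 CPM in sh-Prmt1 and 631 and 719 CPM in sh-scramble (0 of 8 tested higher, 3 lower). Goblet cell markers summed to 499 and 594 CPM in sh-Prmt1 and 1300 and 1140 CPM in sh-scramble (0 of 6 tested higher, 1 lower), most of it AGR2. Among them 1 was higher without sh-Prmt1 replicate 2 and 3 without sh-scramble replicate 1, and 3 were lower without sh-scramble replicate 2. Paneth cell markers summed to 41.1 and 44.5 CPM in sh-Prmt1 and 18.8 and 19.7 CPM in sh-scramble (3 of 3 tested higher, or 2 without sh-Prmt1 replicate 1). The part of these shifts in the receptor results was not tested. Stromal and endothelial markers summed to at most 2.29 CPM and immune markers to at most 6.38 CPM in any library.

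**Figure D3:**
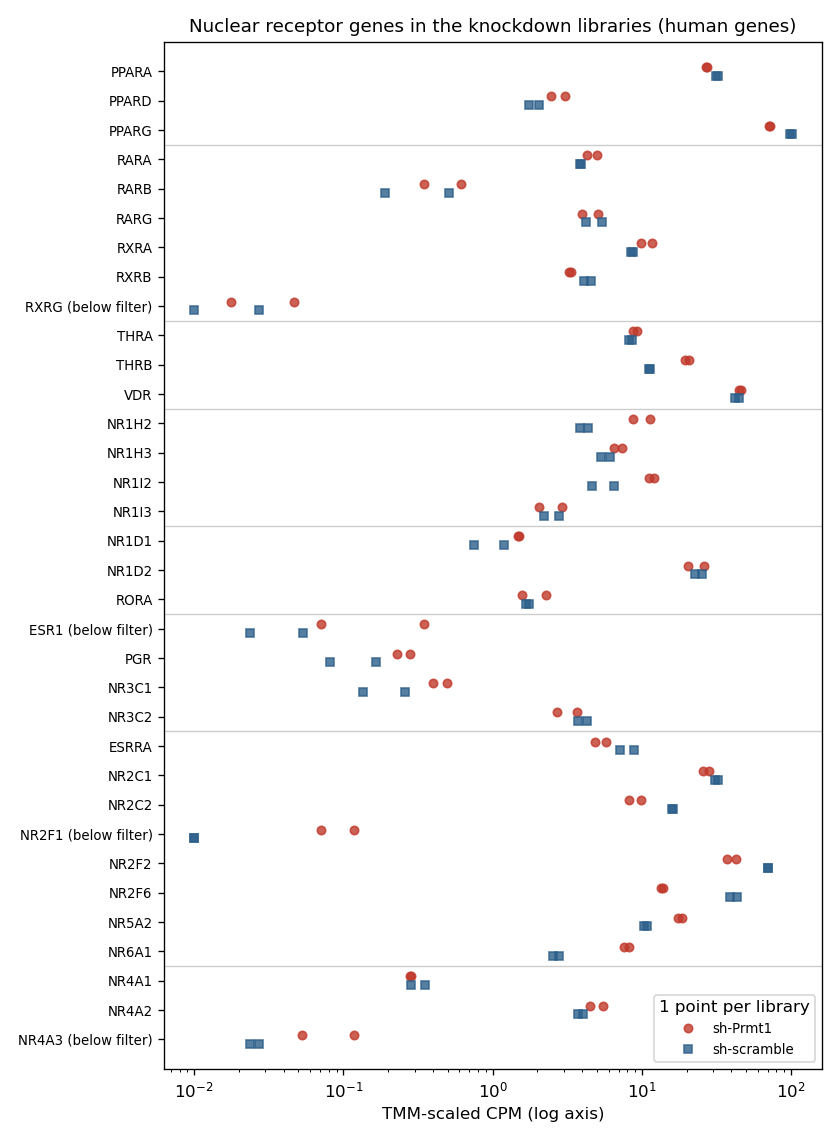
TMM-scaled CPM on a log axis for each of the 34 members (rows, grouped by role) in each sh-Prmt1 library (red circles) and each sh-scramble library (blue squares), with 1 point per library and 2 libraries per group; values of 0 are drawn at 0.01 CPM. The sh-Prmt1 points of NR2F6 lie at 13.4 and 13.8 CPM, left of the sh-scramble points at 38.9 and 43.3 CPM, and those of NR6A1 lie at 8.20 and 7.63 CPM, right of 2.54 and 2.78 CPM.

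Among the ligand-activated members, PPARG was the receptor of highest level per length, with 34.3 and 32.5 TPM in sh-Prmt1 and 42.4 and 41.7 TPM in sh-scramble, where NR2F6 overlapped it. On the CPM scale it had 71.6 and 72.4 in sh-Prmt1 and 99.3 and 102 in sh-scramble, and it fell by 0.49 ± 0.08 on the log2 scale (edgeR adjusted p = 0.00113). PPARA depended on the scale: it had 27.0 and 27.3 CPM in sh-Prmt1 and 32.5 and 31.3 CPM in sh-scramble, but 4.28 and 3.60 TPM in sh-Prmt1 and 2.80 and 3.21 TPM in sh-scramble. Its log2 fold change was -0.23 (edgeR adjusted p = 0.0557) and became 0.23 when transcript lengths entered the fit. PPARD had 3.06 and 2.48 CPM in sh-Prmt1 and 2.05 and 1.75 CPM in sh-scramble and missed the threshold (edgeR adjusted p = 0.0818). Of 16 tested PPAR targets, 8 were higher and 3 lower (median log2 fold change 0.44). The kinase gene PDK4, which restrains glucose oxidation, had 10.9 and 9.57 CPM in sh-Prmt1 and 2.78 and 4.98 CPM in sh-scramble (log2 fold change 1.39). ACADM, an enzyme of fatty acid oxidation, had 41.2 and 42.4 CPM in sh-Prmt1 and 79.4 and 86.6 CPM in sh-scramble (log2 fold change -0.99). Without sh-Prmt1 replicate 1 the count of lower targets was 1.

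None of the 5 retinoid receptors tested was called by edgeR with TMM, DESeq2 or limma-voom, with 2 at an unadjusted p under 0.05 in edgeR, RXRA (11.7 and 9.97 CPM in sh-Prmt1, 8.77 and 8.52 CPM in sh-scramble) and RXRB (3.36 and 3.28 CPM in sh-Prmt1, 4.13 and 4.60 CPM in sh-scramble). With library size alone, RXRA (log2 fold change 0.53, edgeR adjusted p = 0.0102) and RARA (0.48, edgeR adjusted p = 0.0408) were called higher. RARB was near the floor, with 15 and 35 counts in sh-Prmt1 and 19 and 8 in sh-scramble. Genes of retinoid handling were 6 higher and 0 lower of 10 tested (median log2 fold change 1.08). ALDH1A1 and ALDH1A3, which make retinoic acid, and RDH10, which makes its precursor, were among them, chosen as the called genes of the list with the highest folds at an average log2 CPM of at least 2. ALDH1A1 had 124 and 130 CPM in sh-Prmt1 and 44.6 and 41.6 CPM in sh-scramble (log2 fold change 1.56), and RDH10 54.1 and 54.8 CPM against 17.8 and 20.2 CPM (1.52). ALDH1A3 had 6.22 and 6.29 CPM in sh-Prmt1 and 2.67 and 2.76 CPM in sh-scramble (log2 fold change 1.20). RBP2, named after its values were seen, held 61 and 31 counts in sh-Prmt1 and 0 and 0 in sh-scramble, at least 13.0-fold higher against a floor of 3 counts per library. That is a description with no p, since RBP2 passed the filter only through sh-Prmt1, where it was high.

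THRB rose, with 19.6 and 20.8 CPM in sh-Prmt1 and 11.2 and 11.3 CPM in sh-scramble (log2 fold change 0.84 ± 0.10, edgeR adjusted p = 0.000208). THRA and VDR were close between the groups, at 9.28 and 8.77 CPM in sh-Prmt1 and 8.28 and 8.68 CPM in sh-scramble for THRA, and 45.0 and 46.5 CPM in sh-Prmt1 and 42.3 and 44.6 CPM in sh-scramble for VDR. NR1H2 rose to 11.4 and 8.81 CPM in sh-Prmt1, against 3.88 and 4.39 CPM in sh-scramble (log2 fold change 1.28 ± 0.17, edgeR adjusted p = 0.000275). NR1H3 had 7.41 and 6.52 CPM in sh-Prmt1 and 6.12 and 5.36 CPM in sh-scramble and was not called (edgeR adjusted p = 0.172). NR1I2 rose to 12.1 and 11.2 CPM in sh-Prmt1, against 6.53 and 4.65 CPM in sh-scramble (log2 fold change 1.06 ± 0.17, edgeR adjusted p = 0.000844), whereas NR1I3 overlapped at 2.04 to 2.94 CPM. Genes of the response to foreign compounds were 8 higher and 0 lower of 9 tested (median log2 fold change 0.48), with 4 higher without sh-Prmt1 replicate 1 and 5 without sh-scramble replicate 2. ABCC2, an exporter of conjugated compounds, had 19.4 and 20.3 CPM in sh-Prmt1 and 1.51 and 1.34 CPM in sh-scramble (log2 fold change 3.80). GSTA1, a glutathione transferase of a family of close copies, and UGT1A1, whose gene shares exons with other UGT1A genes, had log2 fold changes of 1.34 and 1.16. LXR targets were 1 higher and 3 lower of 8 tested. The phospholipid enzyme LPCAT3 had 12.7 and 12.1 CPM in sh-Prmt1 and 1.89 and 2.95 CPM in sh-scramble (log2 fold change 2.35), and the cholesterol exporter ABCA1 4.11 and 3.08 CPM against 7.50 and 10.2 CPM (-1.31). Vitamin D targets and calcium transport genes were 3 higher and 2 lower of 7 tested, and 1 was lower without sh-Prmt1 replicate 1. Of 4 tested thyroid genes 0 were called by edgeR, DESeq2 or limma-voom, and 1 had an unadjusted p under 0.05 in edgeR.

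Steroid receptors were scarce in the knockdown libraries. NR3C1 held 17 and 28 counts in sh-Prmt1 and 5 and 11 in sh-scramble (edgeR adjusted p = 0.12), PGR 12 and 13 counts against 3 and 7, and ESR1 15 and 4 counts against 2 and 1. NR3C2, the most abundant of these on the TPM scale, had 0.310 and 0.407 TPM in sh-Prmt1 and 0.359 and 0.430 TPM in sh-scramble. Of 11 tested glucocorticoid response genes, 7 were higher and 1 lower (median log2 fold change 0.81). TSC22D3 had 14.5 and 11.6 CPM in sh-Prmt1 and 5.15 and 5.14 CPM in sh-scramble (log2 fold change 1.34). The stress gene DDIT4 had 13.7 and 13.2 CPM in sh-Prmt1 and 6.61 and 4.55 CPM in sh-scramble (log2 fold change 1.28), and SGK1 had 27.1 and 27.0 CPM against 15.7 and 15.3 CPM (0.81). Mineralocorticoid response genes were 2 higher and 2 lower of 7 tested, and 1 was lower without sh-Prmt1 replicate 1 or sh-scramble replicate 1. Of the clock receptors NR1D1 held 64 and 84 counts in sh-Prmt1 and 28 and 51 in sh-scramble, without a call, and NR1D2 and RORA overlapped. Clock genes were 8 higher and 1 lower of 15 tested (median 0.39), with 5 higher without sh-Prmt1 replicate 1 or sh-scramble replicate 1. The repressor gene CRY2 had 11.5 and 11.9 CPM in sh-Prmt1 and 4.40 and 3.18 CPM in sh-scramble (log2 fold change 1.63), and CLOCK, the activator of the loop, 38.7 and 46.7 CPM against 106 and 94.9 CPM (-1.24).

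Of 7 orphan receptors tested in the knockdown, 2 were called higher and 4 lower. Among all genes tested, 20.6% were called higher and 20.4% lower. NR2F6 (EAR2), a repressor studied in immune and tumour cells, held 573 and 783 counts in sh-Prmt1 and 1441 and 1835 in sh-scramble. It had 13.4 and 13.8 CPM against 38.9 and 43.3 CPM, 3.02-fold lower (log2 fold change -1.60 ± 0.10, edgeR adjusted p = 6.33e-06), and in TPM it had 15.6 and 15.3 in sh-Prmt1 and 35.5 and 42.9 in sh-scramble. NR6A1 (GCNF), known as a repressor in germ cells and early embryos, held 351 and 433 counts in sh-Prmt1 and 94 and 118 in sh-scramble. It had 8.20 and 7.63 CPM against 2.54 and 2.78 CPM, 2.97-fold higher (log2 fold change 1.57 ± 0.16, edgeR adjusted p = 6.11e-05). NR2F2 had 37.4 and 43.1 CPM in sh-Prmt1 and 70.1 and 70.4 CPM in sh-scramble (log2 fold change -0.80 ± 0.09, edgeR adjusted p = 0.000141). The fall of NR2F2 was smaller with transcript lengths in the fit (-0.42, edgeR adjusted p = 0.0143). In TPM it had 11.3 and 11.4 in sh-Prmt1 and 13.5 and 13.6 in sh-scramble. NR2C2 (TR4), a testicular orphan receptor, had 8.20 and 9.97 CPM in sh-Prmt1 and 15.9 and 16.1 CPM in sh-scramble (log2 fold change -0.82 ± 0.13, edgeR adjusted p = 0.00081). With transcript lengths in the fit the value of NR2C2 was -0.56 (edgeR adjusted p = 0.0259). Its relative NR2C1 had 25.9 and 28.1 CPM in sh-Prmt1 and 30.9 and 32.6 CPM in sh-scramble, without a call (edgeR adjusted p = 0.0704). NR5A2 rose to 17.4 and 18.6 CPM in sh-Prmt1, against 10.8 and 10.3 CPM in sh-scramble (log2 fold change 0.78 ± 0.11, edgeR adjusted p = 0.000428). ESRRA had 4.88 and 5.80 CPM in sh-Prmt1 and 7.18 and 8.92 CPM in sh-scramble (log2 fold change -0.59 ± 0.16, edgeR adjusted p = 0.0167). The ESRRA call was lost with transcript lengths in the fit (-0.46, edgeR adjusted p = 0.0829) and with library size alone (-0.38, edgeR adjusted p = 0.0838). It was also lost without sh-Prmt1 replicate 1 (-0.48) and without sh-scramble replicate 2 (-0.42). NR2F1 held 5 and 4 counts in sh-Prmt1 and 0 and 0 in sh-scramble. Of 3 tested LRH-1 targets, CCND1 alone was called, with 21.2 and 22.6 CPM in sh-Prmt1 and 40.2 and 35.5 CPM in sh-scramble (log2 fold change -0.79; -0.33 with transcript lengths in the fit, edgeR adjusted p = 0.335).

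The NR4A genes were low in the knockdown libraries. NR4A1 held 12 and 16 counts in sh-Prmt1 and 13 and 12 in sh-scramble, and NR4A3 at most 5. NR4A2 had 4.51 and 5.53 CPM in sh-Prmt1 and 3.75 and 4.06 CPM in sh-scramble, without a call (log2 fold change 0.37, edgeR adjusted p = 0.12). Other immediate early genes were 6 higher and 1 lower of 13 tested (median log2 fold change 0.39), with 4, 3, 4 and 3 higher when sh-Prmt1 replicate 1, sh-Prmt1 replicate 2, sh-scramble replicate 1 and sh-scramble replicate 2 were left out in turn. The antiproliferative gene BTG2 had 18.4 and 18.2 CPM in sh-Prmt1 and 3.70 and 4.25 CPM in sh-scramble (log2 fold change 2.20), and the zinc finger gene EGR1 2.50 and 2.34 CPM against 7.09 and 8.02 CPM (-1.64). The coregulator list had 7 higher and 2 lower of 17 tested, and 1 of the lower genes was PRMT1, the target of the hairpin. NCOA3, a steroid receptor coactivator, had 46.8 and 47.9 CPM in sh-Prmt1 and 26.1 and 30.4 CPM in sh-scramble (log2 fold change 0.74).

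**Figure D4:**
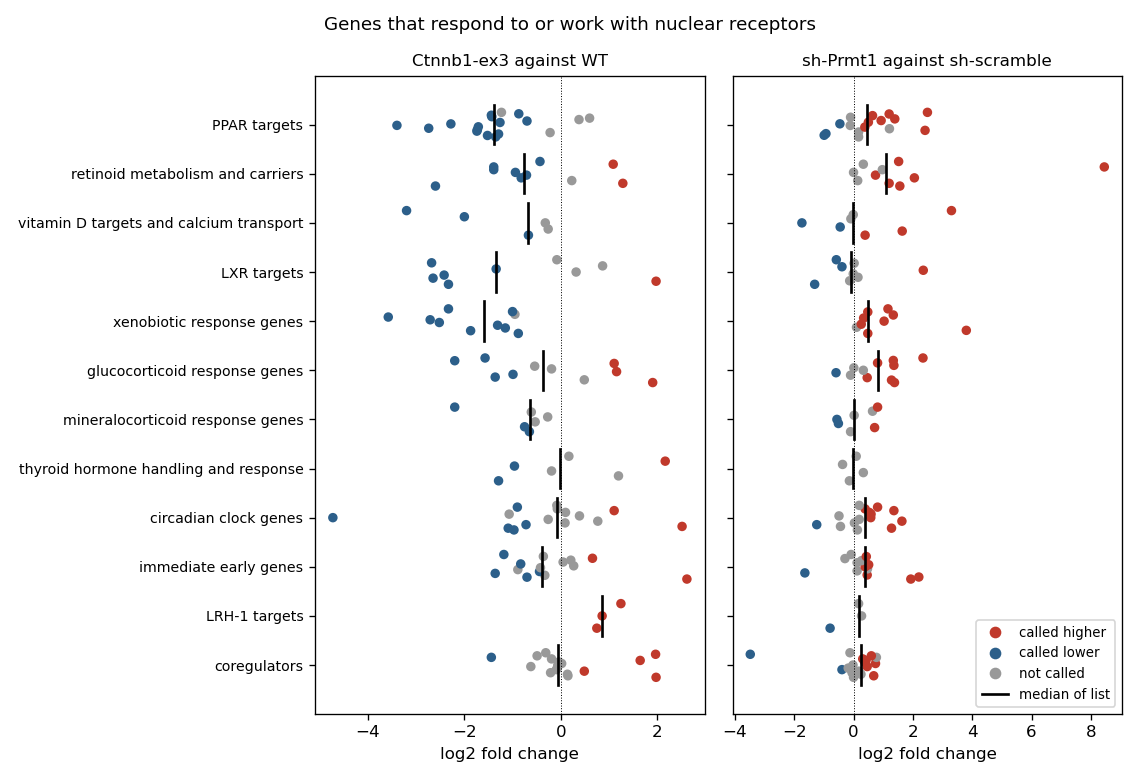
Log2 fold change of each tested gene (points, coloured by call) in 12 lists of genes that respond to or work with nuclear receptors, for Ctnnb1-ex3 against WT (left) and sh-Prmt1 against sh-scramble (right, on a wider axis), with a black bar at the median of each list. On the left the medians of the PPAR, LXR and foreign-compound lists lie at -1.39, -1.34 and -1.59, and on the right those of the retinoid and glucocorticoid lists lie at 1.08 and 0.81.

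Across the experiments, which share no libraries, 28 members were tested in both and 6 were called in both. Of all genes tested, 40.8% were called in the genotype and 41.0% in the knockdown. The share of all genes called in both was not determined, so the 6 show no link between the experiments. Pparg and Esrra were lower in Ctnnb1-ex3 and in sh-Prmt1. Thrb, Nr1i2 and Nr5a2 were lower in Ctnnb1-ex3 and higher in sh-Prmt1, and Nr2f2 was higher in Ctnnb1-ex3 and lower in sh-Prmt1. A further 10 were called for the genotype alone and 4 for the knockdown alone. The difference between the experiments in any member was not tested, since 1 table holds mouse genes and the other human genes. In the authors' deposited table for the genotype, 5 members were higher and 10 lower at an adjusted p under 0.05, 15 of them with the call given here, and Nr5a2 was the 1 member not called there. In the authors' deposited table for the knockdown, 5 were higher and 4 lower, 9 with the call given here, and ESRRA was not called there.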

How the data were processed

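Polyadenylated RNA was sequenced from 8 libraries made, per the labels' protocols, by a custom Smart-seq2 method, which by default does not mark the strand. For the genotype, whole-number counts by mouse symbol were deposited, with no value below 1. For the knockdown the authors deposited Salmon gene tables holding, per the file headers, estimated counts, TPM and effective lengths. The authors also deposited their own log2 fold changes and adjusted p-values, used only where named. The submitters' processing notes name mm10, Salmon and DESeq2, with neither role nor version. Aligner and annotation: not given in the sources used here. Estimated counts were rounded, and human sex-linked genes were left out.

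The experiments were fitted separately (edgeR 4.0.16, R 4.3.3; filterByExpr, TMM, quasi-likelihood test, two-sided; minimum count 10, prior count 2), which was tested on simulated data. TMM makes every fold relative to the bulk of genes. SE is that of the log2 fold change. The biological coefficient of variation was 0.171 for the genotype and 0.105 for the knockdown, and counting noise did not account for the spread of replicates in any group. Exon lengths came from GENCODE M21. DESeq2 1.42.0 and limma 3.58.1 (voom, cyclic loess) served as alternatives. All members are named; of each other list, the called genes with the 3 largest absolute log2 fold changes and an average log2 CPM of at least 2 could be named, and some of these are not reported here. Members and lists were chosen with earlier results of these data known.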

Additional observations from a re-analysis of the deposited data

How the results depend on the processing

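Each comparison was refitted under 13 alternatives. The call of Nr1i3 is counted here, although it passed the filter only with its WT libraries, where it was high. In the genotype, all 16 called members kept their direction, and 7 of 16 (Ppara, Pparg, Thrb, Nr1h3, Nr1i3, Nr3c1 and Nr4a1) were called under each of the 13. In the knockdown, all 10 kept their direction and 9 of 10 were called under each, ESRRA being the exception. Leaving out 1 library in turn gave 2231 to 7290 called genes, 2 to 6 members higher and 7 to 12 lower in the genotype, against 5291, 5 and 11, and the lone library left was assumed to vary like the other group. In the knockdown it gave 5470 to 7110 called genes, against 7556. Library size alone gave 11 members higher in the knockdown, against 5, and upper-quartile factors gave a share of 68.0% higher among genotype calls. Whether same-numbered libraries belong together is not stated by the labels. Their deviations correlated at 0.0706 in the genotype and -0.0512 in the knockdown, which cannot settle it. The fit with the replicate block called 6484 genes in the genotype, with 5 members higher and 12 lower (Nr1d1 added). In the knockdown that fit called 7106 genes, with 5 members higher and 5 lower.

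Members whose log2 fold change turned its sign were all uncalled, and the cause was not tested. In the genotype, upper-quartile factors gave Nr1d2 0.09, Nr3c2 0.13, Nr2c2 0.09, Nr2f6 0.08 and Nr4a2 0.24, and library size alone 0.10, 0.13, 0.09, 0.09 and 0.25. Nr4a2 was 0.03 with no filter, 0.08 with voom, 0.00 with the block and 0.01 with 1 taken from every count, and Nr2c1 was -0.17 with cyclic loess. With 1 library left out in turn, Nr3c2 ranged over -0.45 to 0.19, Nr2c1 over -0.28 to 0.35, Nr2c2 over -0.32 to 0.02, Nr2f6 over -0.29 to 0.02 and Nr4a2 over -0.23 to 0.27. In the knockdown, library size alone gave RARG 0.12, NR1I3 0.20, NR1D2 0.16 and NR4A1 0.04, and length offsets gave PPARA 0.23 and NR4A1 0.23. With 1 library left out in turn, RARB ranged over -0.07 to 1.34, RARG over -0.27 to 0.10, NR1I3 over -0.29 to 0.23, NR1D2 over -0.24 to 0.11 and RORA over -0.14 to 0.40. Of the members that did not pass the filter, the fit with no filter called 1 of 5 in the genotype, Rora (2.89, edgeR adjusted p = 0.02), and 0 of 4 in the knockdown, with 2 of those at an unadjusted p under 0.05.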
